A study of Macaca mulatta with 22 samples.

Results

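The peaks described here are sites of N6-methyladenosine (m6A) enrichment in RNA that lie near the 3′ ends of genes in the prefrontal cortex of rhesus macaques (Macaca mulatta). A peak was placed by its midpoint along the annotated gene span, read in the direction of transcription, and belonged to the set if it lay at 80% of the span or beyond, that is, in the last 20%. These are called last-fifth peaks. Of 10069 peaks in the lists of 11 animals, 9215 could be placed, because the caller and the annotation named the same gene, the annotated span was at least 400 bp and the transcript was not mitochondrial. The last 20% of the span held 3527 of them, which is 38.3% of the placed peaks and 35.0% of all peaks. These 3527 peaks lay in 1491 genes, of 3413 genes with any placed peak (43.7%), and joined into 1815 separate regions when peaks of different animals that overlapped were merged.

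The tissue came from 5 animals exposed to sevoflurane, an inhaled general anaesthetic, and from 6 control animals, all at postnatal day 35 per the labels. The exposed animals, males D and S1 and females F, S2 and S3, inhaled 2.5 to 3% sevoflurane for 4 h at a time, at about 7, 21 and 35 days of age. The controls were males A and B and females C, C1, C2 and C3, and what they were given during those sessions is not stated in the sources used here. Total RNA was fragmented and pulled down with an m6A antibody, and each animal has 1 list of peaks, every peak with the authors' own fold enrichment. The level of each RNA was not analysed here, so a peak needed both RNA of the gene and enrichment by the antibody.

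m6A is the commonest internal modification of messenger RNA. It is written in the nucleus by a complex around METTL3 and METTL14, can be removed by the demethylases FTO and ALKBH5, and is read by proteins of the YTH family that act on the decay, translation and export of the RNA. In mammalian messenger RNAs it is concentrated in long internal exons, around the stop codon and in the 3′ untranslated region, so the last part of a gene is where many of its sites are known to lie. In the brain the mark is abundant and is known for roles in neuronal development, synaptic function and learning.

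The placed peaks gathered at both ends of genes, and most at the 3′ end. Averaged over the 11 animals, 38.6% ± 2.39 of an animal's placed peaks lay in the last 20% of the span (SD, n = 11), against 26.1% ± 4.04 in the first 20%, 8.58% between 20 and 40%, 10.4% between 40 and 60% and 16.3% between 60 and 80%. Within that last stretch the peaks were crowded towards the annotated end: 46.3% ± 2.69 of them lay in the final 5% of the span. The 3527 midpoints lay a median of 1679 bp from the annotated end in genomic distance, with 762 bp and 3630 bp at the 25th and 75th percentiles. Some lay far upstream, with the 90th percentile at 8482 bp. In 15 peaks the midpoint was already beyond the annotated end.

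**Figure D1:**
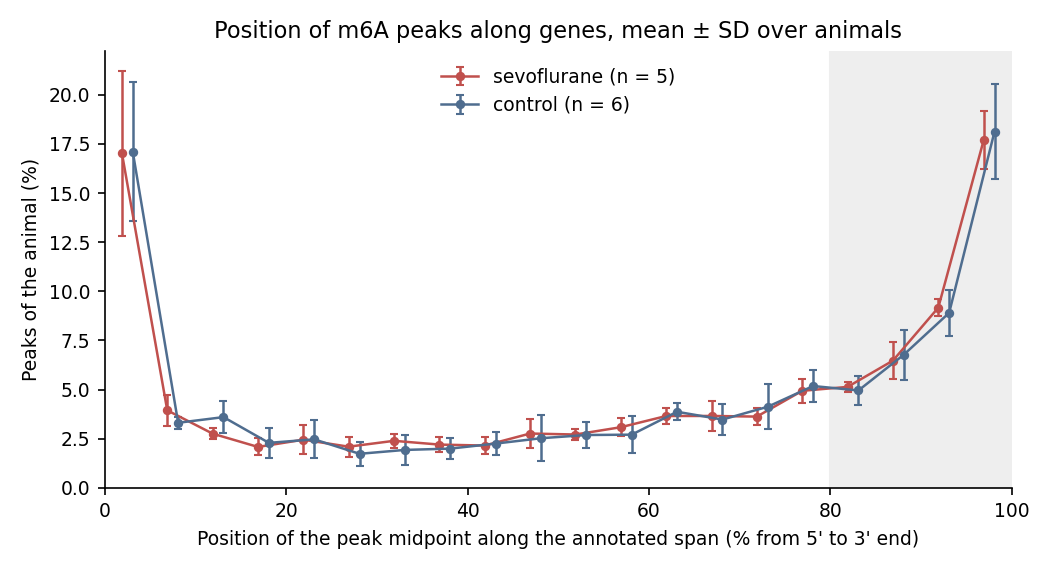
Share of each animal's placed m6A peaks (y axis, %) in steps of 5% of the annotated gene span (x axis, from the 5′ to the 3′ end), as mean ± SD over 5 sevoflurane and 6 control animals, with the last 20% shaded. Both curves climb from about 60% to the last 5% of the span, and their error bars overlap in the shaded steps.

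The annotation class in the deposited lists was not used to find these peaks, because it did not follow the direction of transcription. On the plus strand, 55.1% of the last-fifth peaks carried the 3′ UTR class, 41.0% the exon class and 3.85% the 5′ UTR class. On the minus strand, 6.78% carried the 3′ UTR class and 8.49% the 5′ UTR class, with 84.7% called exon. Of the last-fifth peaks, 1948 lay on the plus strand and 1579 on the minus strand. A further 297 of the 3527 (8.42%) also overlapped another annotated gene, to which they could equally belong.

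The sevoflurane animals had about 2 times as many last-fifth peaks as the controls, and about 2 times as many peaks elsewhere in genes. The number was 405 in D, 384 in F, 317 in S1, 593 in S2 and 455 in S3, while among the 6 controls the lowest was 147 (C1), the median 211.5 and the highest 409 (C3). Every sevoflurane animal stood above 5 of the 6 controls, and the remaining control, C3, lay above D, F and S1. The means were 430.8 ± 103 in sevoflurane animals and 228.8 ± 95.9 in controls (SD, n = 5 and 6). As the ratio of geometric means, from the log2 scale on which the test was run, the difference was 1.96 (95% interval, 1.25 to 2.97). All ratios between groups below are of geometric means. The two-sided exact permutation test over all 462 splits gave p = 0.0130, which became 0.0519 after Benjamini-Hochberg adjustment over the 4 group comparisons of last-fifth peaks. Placed peaks elsewhere in genes numbered 694 ± 183 in sevoflurane animals and 369.7 ± 182 in controls (SD, n = 5 and 6), and the ratio of geometric means was 1.98 (exact permutation p = 0.0173). Every list was also reduced to its 452 peaks of lowest p-value, the length of the shortest list. The log2 difference in last-fifth peaks was then 0.01 (exact permutation p = 0.827), against 0.97 with whole lists. Equal lists leave only the share to vary, so this smaller difference follows by construction.

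The sexes could be set apart only in small groups. Among females the ratio of last-fifth peak numbers was 2.17 (3 sevoflurane and 4 control animals, exact permutation p = 0.0857). Among males it was 1.70 (2 and 2 animals, exact permutation p = 0.333, the smallest p that this design allows). The difference between the sexes in the log2 ratio was 0.35, with an exact permutation p of 0.54 over 150 relabellings. The labels also name animals in 2 styles, with a letter alone or a letter and a number, and the ratio was 2.08 among the single-letter animals and 1.80 among the numbered ones (exact permutation p = 0.1, the smallest possible, and 0.2).

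As a share of each animal's placed peaks, the last-fifth peaks were alike in the 2 groups within their spread. They made up 38.1% of the placed peaks in D, 35.5% in F, 40.8% in S1, 37.9% in S2 and 40.0% in S3, against 35.2% (C), 38.7% and 42.0% (C1) as the lowest, median and highest control. The ranges overlapped over almost their whole width. The means were 38.5% ± 2.06 in sevoflurane animals and 38.8% ± 2.83 in controls (SD, n = 5 and 6), a difference of -0.300 percentage points. Its 95% interval, from -3.80 to 3.25, held 0 (exact permutation p = 0.846 before and after adjustment). With these 11 animals, the test did not reject shifts inside that interval.

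**Figure D2:**
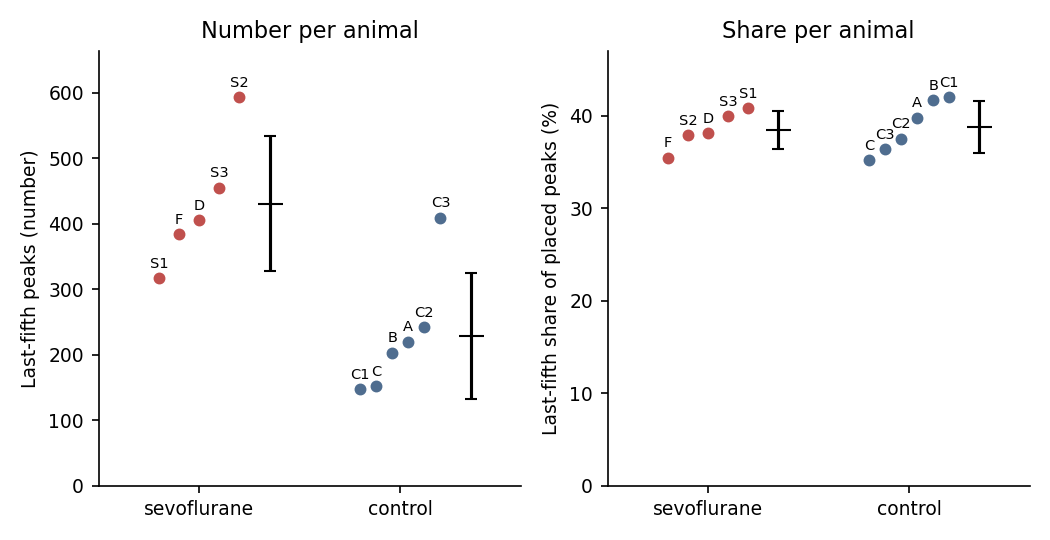
Left, number of last-fifth peaks per animal, and right, last-fifth share of the placed peaks (%), for each sevoflurane and control animal (points, named as in the labels) with the group mean and SD beside them. In number, S2 is highest at 593 and C3 stands apart from the other controls at 409, while the shares of both groups lie between 35.2% and 42.0%.

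Where the last-fifth peaks lay inside their stretch of the gene was also measured. The final 5% of the span held 45.9% ± 2.06 of the last-fifth peaks of sevoflurane animals and 46.6% ± 3.29 of those of controls (SD, n = 5 and 6). Peaks within 2000 bp of the annotated end made up 54.5% ± 2.51 in sevoflurane animals and 56.1% ± 4.20 in controls, and peaks over 5000 bp away 16.8% ± 2.99 and 16.2% ± 5.66. The median distance to the end averaged 1699 ± 154 bp in sevoflurane animals and 1636 ± 194 bp in controls, with a ratio of 1.04 (95% interval, 0.914 to 1.21). The exact permutation test of this distance gave p = 0.595, or 0.794 after adjustment. None of these summaries separated the groups.

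Last-fifth peaks were stronger than the other placed peaks of the same list in all 11 animals. The median fold enrichment was 7.33 among last-fifth peaks against 5.72 elsewhere in D, 6.54 against 5.96 in F, 6.31 against 5.66 in S1, 5.86 against 5.32 in S2 and 6.12 against 4.54 in S3. In the controls it was 7.78 against 6.81 in A, 7.78 against 6.48 in B, 7.19 against 6.62 in C, 6.37 against 6.12 in C1, 8.26 against 6.81 in C2 and 6.03 against 5.09 in C3. The last-fifth value was the higher in each pair, with a geometric mean ratio of 1.16 (95% interval, 1.11 to 1.22). The two-sided exact sign-flip permutation test over the 11 animals gave p = 0.000977, the smallest it can give, and 0.00146 after adjustment over the 3 comparisons with other peaks. The peaks at the opposite end of genes were not weaker: the mean of the animals' medians was 6.87 for last-fifth peaks, against 7.04 in the first 20% of the span, 5.98 between 20 and 40%, 4.88 between 40 and 60% and 5.37 between 60 and 80%. Against peaks between 20% and 80% of the span alone, the log2 difference was 0.40, against 0.22 for all other peaks.

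The last-fifth peaks also crossed fewer exon junctions. A peak made of 1 exonic block lies within a single exon, and 77.5% ± 5.47 of an animal's last-fifth peaks did so, against 56.5% ± 7.16 of its other placed peaks (SD, n = 11). The share among last-fifth peaks ran from 71.4% in S3 to 90.5% in C1, and elsewhere from 48.0% in C3 to 72.9% in C1. The within-animal difference was 20.9 ± 3.21 percentage points (SD, n = 11; 95% interval, 18.7 to 23.0). It was positive in 11 of 11 animals (exact sign-flip permutation p = 0.000977, or 0.00146 adjusted). Where a gene had both kinds of peak in the same animal, the difference was 12.7 percentage points (exact sign-flip permutation p = 0.0195). The peaks were of like length: the geometric mean ratio of median exonic length, last-fifth peaks over those at other positions, was 0.980 (95% interval, 0.908 to 1.05; exact sign-flip permutation p = 0.438).

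**Figure D3:**
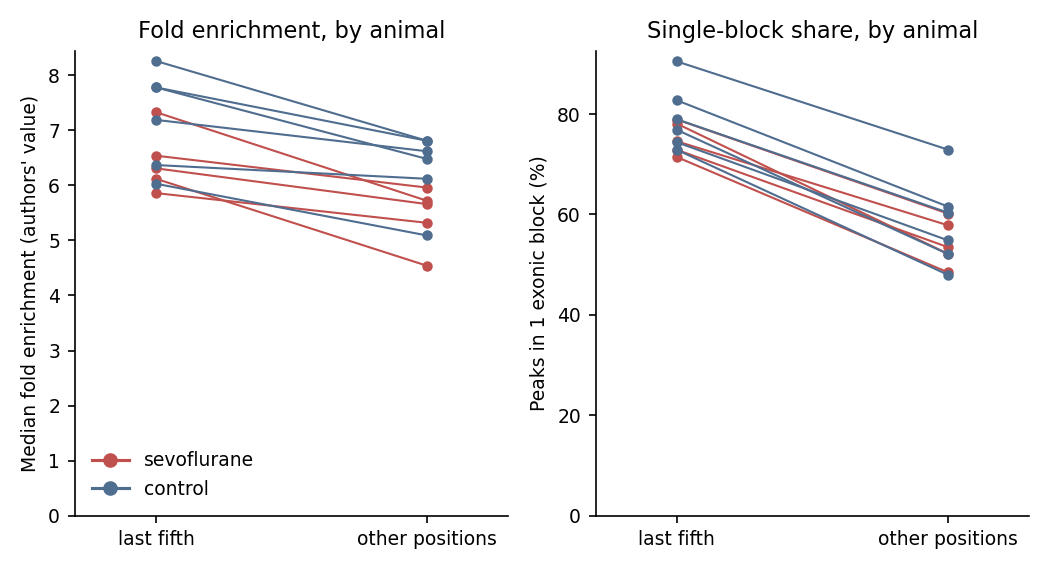
For each of the 11 animals, a line joins its last-fifth peaks to its peaks at other positions. Left, median of the authors' fold enrichment, and right, percentage of peaks in 1 exonic block; every line is higher at its last-fifth end.

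The single-block share climbed at every step towards the annotated end, and enrichment was highest in the last step. Between 80 and 85% of the span, just inside the boundary, the 469 peaks had a mean of the animals' median enrichments of 5.66, and 57.7% lay in 1 block. Between 75 and 80%, just outside it, the 467 peaks had 5.31 and 56.4%. From 85 to 90% the values were 6.67 and 68.2% (588 peaks), from 90 to 95% 6.58 and 71.0% (844 peaks), and in the last step, from 95% on, 7.69 and 89.6% (1626 peaks). The peaks beside the boundary thus resembled each other more than they resembled those at the very end.

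Across the groups, the median enrichment of last-fifth peaks was 6.43 ± 0.561 in sevoflurane animals and 7.24 ± 0.877 in controls (SD, n = 5 and 6). The ratio was 0.892 (95% interval, 0.768 to 1.04; exact permutation p = 0.119, or 0.238 adjusted). Without C3 the log2 difference was -0.22 instead of -0.16 (exact permutation p = 0.0476), and at equal list lengths it was 0.10 (exact permutation p = 0.539). Medians from lists of different lengths do not show a change in methylation.

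Most genes with a last-fifth peak had it in few animals. In 958 of the 1491 genes (64.3%) the peak was listed in 1 animal, and in 142 (9.52%) in at least 6 animals. Counted in the same way in steps of 20%, the rest of the span gave 2892 gene entries, of which 69.3% were listed in 1 animal and 6.78% in at least 6. In the first 20% alone, 63.7% of 1060 genes were listed in 1 animal and 8.96% in at least 6, near the last-fifth values. There were 29 genes with a last-fifth peak in all 11 animals (1.9%). The first 20% of the span had 17 such genes (1.6%). There were 2 between 20 and 40% (0.40%), 3 between 40 and 60% (0.51%) and 8 between 60 and 80% (1.1%). Of the 1491 genes, 746 had a last-fifth peak in sevoflurane animals alone, 351 in controls alone and 394 in both (50%, 23.5% and 26.4%), with longer lists in sevoflurane animals. Over all 4383 entries of a gene and a 20% step the shares were 51.2%, 25.3% and 23.5%. A last-fifth peak shared its merged region with placed peaks of at least 5 other animals in 28.7% ± 4.69 of cases in sevoflurane animals and 46.2% ± 11.2 in controls. For other placed peaks the values were 26.6% ± 3.53 and 41.8% ± 9.92 (SD, n = 5 and 6). Peaks of a merged region need not overlap each other directly. The lists differ in length between the groups, and the part of list length in these shares was not tested.

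The peak shared by all animals that ranked highest in its lists belonged to VGF, the precursor of neuropeptides secreted by neurons and endocrine cells. It formed a single region on chromosome 3, 126569040 to 126569668 on the minus strand of rheMac8, with midpoints a median of 1137 bp from the annotated end. Its fold enrichment was 71.9 in D, 245 in F, 16.2 in S1, 243 in S2 and 150 in S3, against 21.0, 66.2 and 131 as the lowest, median and highest control. The sevoflurane values enclosed those of the controls, and in its own list the VGF peak stood at a median percentile of 98.8.

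The next 3 genes followed by the same percentile. CRACD, a regulator that inhibits the capping of actin filaments, had a region at chromosome 5, 78288486 to 78289474 (minus strand), 15282 bp from the annotated end. Its fold enrichment was 52.8 in D, 54.5 in F, 59.8 in S1, 61.7 in S2 and 101 in S3, against a lowest, median and highest control of 35.9, 46.5 and 78.4. RNF112, a ubiquitin ligase with a GTPase domain that is found mainly in brain, had 69.3, 59.0, 47.8, 82.3 and 55.9 in D, F, S1, S2 and S3, against 12.3, 40.4 and 117 in the controls, at chromosome 16, 19221089 to 19221477 (plus strand). RHOBTB2, an atypical GTPase that serves as an adaptor for a cullin ubiquitin ligase, had 70.4, 43.1, 20.9, 51.1 and 55.9 in the same sevoflurane animals, against 15, 46.05 and 74.3 in the controls. For all 3 genes the groups overlapped.

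Some of the genes marked in every animal encode RNA-binding proteins. CIRBP, a stress-responsive protein induced by cold, had 20.9, 47.7, 120, 38.9 and 94.3 in D, F, S1, S2 and S3, against 11.2, 33.25 and 58.8 in the controls, over 4 blocks at chromosome 19, 1055526 to 1056801 (plus strand). HNRNPR, a nuclear ribonucleoprotein, had 35.7, 24.6, 47.8, 36.9 and 143 in the same animals, against 8.15, 24.05 and 63.6 in the controls. In both genes the highest sevoflurane animal was above every control and the lowest was inside the control range. SNRNP70, the protein of the U1 splicing particle, and HNRNPC, a nuclear ribonucleoprotein that binds RNA opened by m6A, were also marked in all 11 animals. HNRNPC was the weaker, between 4.57 and 9.08 in sevoflurane animals and between 4.63 and 24.8 in controls.

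Other genes marked in every animal encode proteins of neurons. MAPT, which encodes the microtubule-binding protein tau, had 68.2, 59.0, 11.3, 74.5 and 34.9 in D, F, S1, S2 and S3, against 2.92, 33.5 and 38.9 in the controls, in 1 region of 301 bp at chromosome 16, 52468381 to 52468681 (plus strand). ADGRL1, the adhesion receptor latrophilin 1, had 68.2, 53.3, 12.0, 31.9 and 115, against 13.4, 25.1 and 42.4 in the controls. SYP, which encodes the synaptic vesicle protein synaptophysin, had 35.6, 26.1, 17.9, 25.1 and 37.2, against 6.37, 23.6 and 43.3 in the controls. The groups overlapped for each of these genes. The postsynaptic scaffold SHANK1, the kinase subunit CAMK2B, the axonal motor KIF1A, the microtubule proteins MAP1A and STMN4, the tau kinase TTBK1 and the adenylyl cyclase ADCY1 belonged to the 29 genes as well.

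Single genes could hold several last-fifth regions. ELFN2, a membrane protein with leucine-rich repeats that is enriched in brain, had 28 peaks in 5 regions on chromosome 10. The region in all 11 animals lay at 79353584 to 79354153 (minus strand), a median of 4948 bp from the annotated end, with a median enrichment of 31.1. The other 4 regions were listed in 8, 4, 2 and 2 animals. The proteoglycan gene SPOCK2 had 25 peaks in 4 regions, 2 of them in all 11 animals. Its strongest peak had 24.2, 17.7, 19.9, 23.4 and 59.4 in D, F, S1, S2 and S3, against 8.12, 10.8 and 15 as the lowest, median and highest control. These ranges did not overlap, but they come from lists of different lengths and were not tested. Of the 29 genes with a last-fifth peak in all animals, SPOCK2 was the only gene without overlap between the groups. SHANK1 had 16 peaks in 4 regions, 1 of them in 10 animals. LUZP1, a cytoskeletal protein with a leucine zipper, had 5 regions of which none was listed in more than 2 animals.

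Metabolic and signalling genes were among the first 12 as well. FADS2, the desaturase that starts the making of long polyunsaturated fatty acids, had 57.2, 29.5, 41.9, 93.7 and 34.9 in D, F, S1, S2 and S3, against 18.9, 31.65 and 62.9 in the controls, a median of 418 bp from the annotated end. NISCH, a protein that binds integrins and imidazoline compounds, had 51.7, 28.4, 13.5, 64.9 and 129, against 11.4, 20.1 and 72.4 in the controls. The groups overlapped for both genes. FADS2 also had a peak elsewhere in the gene in every animal. Of the 29, 17 had a peak elsewhere in at least 1 animal and 12 in none, and of all 1491 genes 478 (32.1%) had one.

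**Figure D4:**
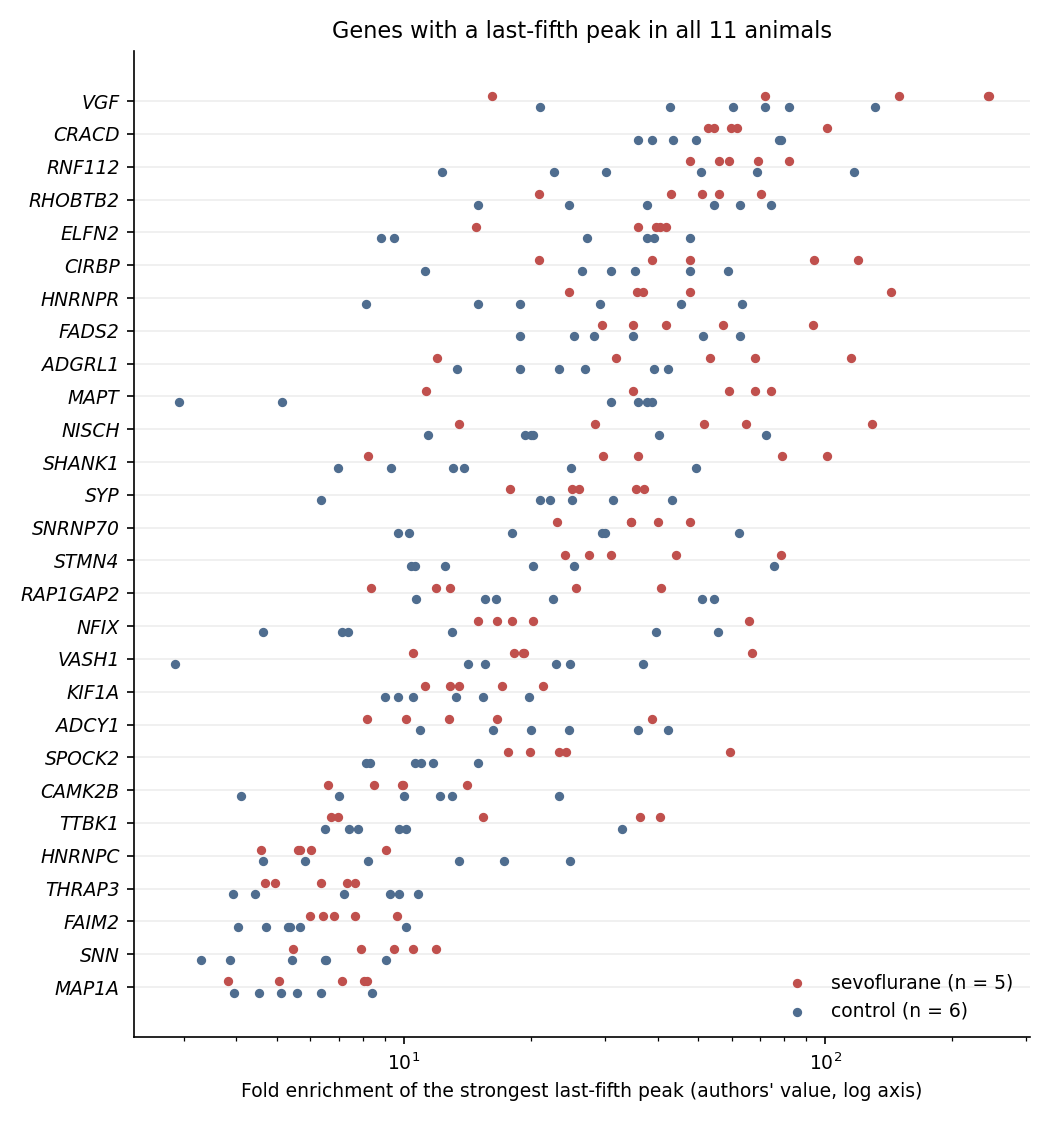
Authors' fold enrichment of the strongest last-fifth peak (x axis, log scale) for 28 of the 29 genes that had one in all 11 animals (rows), with 1 point per sevoflurane animal and 1 per control. VGF, CRACD and RNF112 lie at the top. The ranges of the 2 groups overlap for every drawn gene except SPOCK2 (17.7 to 59.4 in sevoflurane animals and 8.12 to 15 in controls).

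No gene's last-fifth peak differed in presence between the groups after adjustment. Of the 1491 genes, 483 had the peak in 2 to 9 animals and were tested with Fisher's exact test. At an unadjusted p under 0.05, 10 of the 483 (2.07%) had it more often in sevoflurane animals and 0 more often in controls, and the lowest adjusted p was 0.605. Over all 1320 entries of a gene and a 20% step of its span that were tested, the share called in the direction of sevoflurane was 1.14%, and in the direction of the controls 0%. The 1.14% includes the last-fifth entries themselves, the gap between the shares was not tested, and the lists were longer after sevoflurane. With 5 and 6 animals the smallest possible Fisher's exact p is 0.00216, and 2 of the 1320 entries reached it. An adjusted p under 0.05 would need many entries at that value, so the adjusted test could hardly call a single gene. At equal list lengths none of the 10 was among the calls, and the 1 gene then called was CENPB, a centromere protein (5 of 5 exposed animals against 1 of 6 controls, exact p = 0.0152 unadjusted, named after its value was seen).

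DLG3, the synaptic scaffold SAP102 that anchors NMDA receptors, was the only gene of the 10 with the peak in every sevoflurane animal and in 0 of 6 controls. Its Fisher's exact p was 0.00216, and 0.605 after adjustment. Its peaks were weak, with a fold enrichment of 2.80 in D, 2.49 in F, 2.61 in S1, 3.19 in S2 and 3.07 in S3, near the lowest value of 2.06 in any list. They lay on the X chromosome, in 4 animals at 65288717 to 65288897 and in 1 at 65287458 to 65287548 (plus strand). At equal list lengths DLG3 had a last-fifth peak in 0 sevoflurane and 0 control animals.

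A further 3 genes had the peak in 5 of 5 exposed animals against 1 of 6 controls, each with a Fisher's exact p of 0.0152 (0.605 adjusted). PLXNA1, a semaphorin receptor in axon guidance, had 5.38 in D, 10.6 in F, 35.9 in S1, 7.19 in S2 and 8.15 in S3, and 7.78 in control A. KDM4B, a histone demethylase, had 2.73, 4.54, 6.84, 19.2 and 4.49, and 5.66 in control C3, a median of 31655 bp upstream of the annotated end. MEF2D, a transcription factor of activity-dependent neuronal genes, had 9.68, 4.29, 3.81, 5.38 and 3.00, and 2.99 in control C. Where a control had the peak, its enrichment lay within the range of the sevoflurane animals for PLXNA1 and KDM4B and just below it for MEF2D.

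The remaining 6 genes had the peak in 4 of 5 exposed animals against 0 of 6 controls, each again with a Fisher's exact p of 0.0152 (0.605 adjusted). TOLLIP, an adaptor of Toll-like receptor signalling and endosomal sorting, had 13.2 in D, 29.9 in S1, 12.8 in S2 and 24.5 in S3, in a region centred 31 bp beyond the annotated end, at chromosome 14, 1149223 to 1149432 (plus strand). AMER3, a membrane protein that binds APC, had 14.3, 12.5, 34.1 and 9.61 in D, F, S2 and S3. NEURL1, a ubiquitin ligase of the synapse, had 10.3, 3.89, 19.2 and 8.39 in the same 4 animals, and MYO9B, a myosin with a GTPase-activating domain, had 13.2, 9.08, 5.98 and 5.86 in D, F, S1 and S2. The other two were the kinase LMTK2 and the junctional scaffold MAGI1, which fell outside the naming rule. At equal list lengths the counts over these 10 genes were between 0 and 4 sevoflurane animals and between 0 and 1 controls.

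In the opposite direction no gene reached an unadjusted p under 0.05. The nearest had the peak in 0 of 5 exposed animals against 3 of 6 controls, a Fisher's exact p of 0.182. They were ADARB1, an adenosine deaminase that edits RNA of neurotransmitter receptors, FMR1, an RNA-binding regulator of translation at synapses, FNBP1L, a membrane-bending protein, and the actin-binding CNN3. The ADARB1 peaks were strong, with 28.3 in B, 41.6 in C1 and 27.2 in C3. Among genes with the peak in at least 2 animals of 1 group and in none of the other, 119 of the 1491 (7.98%) belonged to sevoflurane animals and 20 (1.34%) to controls. Over all 4383 entries these shares were 7.35% and 1.62%, near those of the last-fifth peaks, and the sevoflurane lists were longer.

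**Figure D5:**
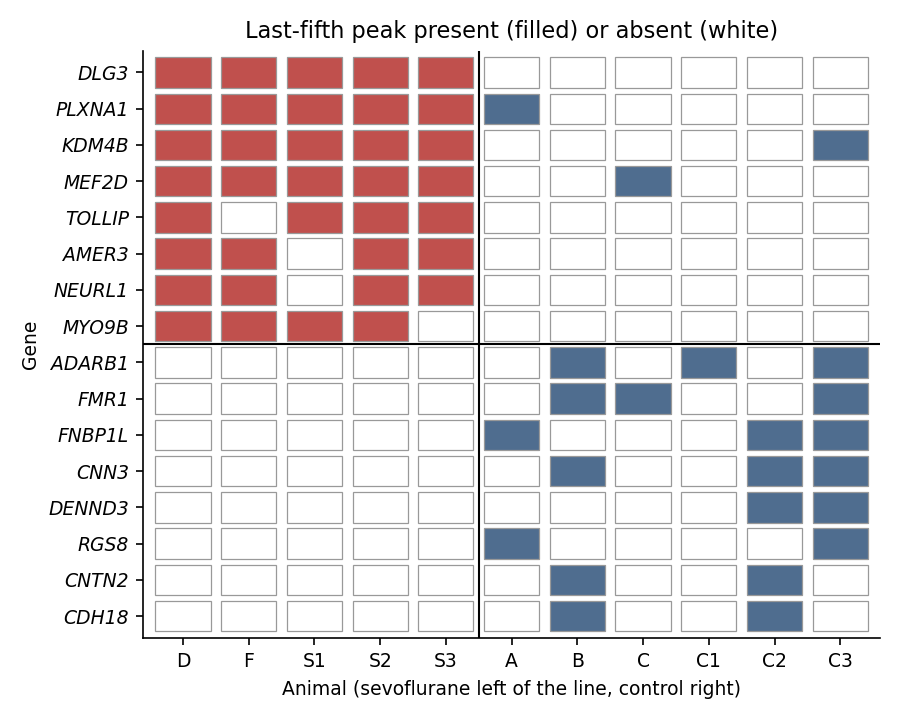
Presence (filled) or absence (white) of a last-fifth peak in each animal (columns, sevoflurane left of the line and control right) for the 8 named genes of lowest Fisher's exact p in each direction (rows). DLG3 is filled in all 5 sevoflurane animals and no control, and the genes below the line are filled in 2 or 3 controls at most.

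Gene lists of the pathway and of the tissue, chosen with earlier results of these data known, were counted in the same way. Of 24 genes that write, erase or read m6A, 10 had a placed peak in some animal and 3 had a last-fifth one (30.0%, against 43.7% of all genes with a placed peak). These were HNRNPC in all 11 animals, FMR1 in 0 of 5 exposed animals against 3 of 6 controls, and METTL16, a methyltransferase of U6 and a few other RNAs, in 2 of 5 against 0 of 6. Among the 2 genes of this list that were tested, 0 passed an unadjusted p under 0.05 in either direction with Fisher's exact test. Of all 483 genes tested with a last-fifth peak, 10 passed (2.07%), so 2 genes are too few to set against that share. The writers METTL3 and METTL14 and the erasers FTO and ALKBH5 had no placed peak in any list, which says nothing of their RNA levels.

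Synaptic genes were counted on 2 lists, and in both over 50% of the genes with a placed peak had a last-fifth one. Over all genes with a placed peak the share was 43.7%, and 10 of the 483 tested passed the unadjusted threshold. Genes with a last-fifth peak numbered 393.6 ± 83.0 in a sevoflurane animal and 213.7 ± 87.3 in a control. The 2 lists are small, and their gap from all genes was not tested. Of 32 postsynaptic genes, 17 had a placed peak and 11 a last-fifth one (64.7%), and an average of 5.8 ± 1.3 genes did so in a sevoflurane animal and 4.17 ± 1.17 in a control (SD, n = 5 and 6). Beside SHANK1 and CAMK2B, DLGAP1, a scaffold protein, had it in 3 of 5 exposed animals against 5 of 6 controls. Among the 6 genes tested, DLG3 passed the unadjusted threshold and none passed after adjustment. Of 32 presynaptic and secretory genes, 22 had a placed peak and 13 a last-fifth one (59.1%), led by VGF and SYP, with 0 of 4 tested past the threshold. SYT7, a calcium sensor of vesicle release, had it in 3 of 5 exposed animals against 2 of 6 controls, and NRXN2, an adhesion protein of the presynaptic side, in 2 of 5 against 3 of 6.

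For cytoskeletal and ion channel genes the group averages lay within the spread between animals. Of 24 cytoskeletal and motor genes, 14 had a placed peak and 7 a last-fifth one (50%), an average of 4.4 ± 0.548 genes in a sevoflurane animal and 4.17 ± 0.753 in a control (SD, n = 5 and 6). NEFM, the medium neurofilament chain, had it in 5 of 5 exposed animals against 5 of 6 controls. Of 24 ion channel genes, 13 had a placed peak and 6 a last-fifth one (46.2%), an average of 1.4 ± 1.14 genes in a sevoflurane animal and 0.667 ± 0.516 in a control. Among them were the calcium channel subunit CACNB3 and the sodium channel genes SCN2A, SCN1A and SCN2B, in 1 to 3 animals each. None of the 3 ion channel genes tested and not the 1 cytoskeletal gene tested passed the unadjusted threshold, against 10 of all 483 tested. Over all genes with a placed peak, 43.7% had a last-fifth one. Such genes numbered 393.6 ± 83.0 in a sevoflurane animal and 213.7 ± 87.3 in a control.

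Of 26 genes of transcription and chromatin, 17 had a placed peak and 10 a last-fifth one (58.8%, against 43.7% of all genes with a placed peak). The average was 5.0 ± 0.707 genes with a last-fifth peak in a sevoflurane animal and 1.83 ± 0.983 in a control (SD, n = 5 and 6). All genes with a last-fifth peak numbered 393.6 ± 83.0 in a sevoflurane animal and 213.7 ± 87.3 in a control. This list was chosen with earlier results of these data known, which can build in a gap between the groups. Whether it differs from all genes was not tested. Among the 6 tested, KDM4B and MEF2D passed the unadjusted threshold and none passed after adjustment, against 10 of the 483 genes tested with a last-fifth peak. CHD3, a chromatin remodeller, had the peak in 4 of 5 exposed animals against 6 of 6 controls, and DNMT3A, a DNA methyltransferase, in 3 of 5 against 0 of 6 (Fisher's exact p = 0.0606). The same list's genes with a placed peak anywhere numbered between 8 and 13 in sevoflurane animals and between 1 and 6 in controls. All placed peaks, counted as peaks and not as genes, numbered between 777 and 1565 in sevoflurane animals and between 350 and 1124 in controls. Whether the list's counts differ beyond the length of the peak lists was not tested.

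Markers of the cell types in the cortex were few among the peaks. Of 10 neuronal markers, 4 had a placed peak and 3 a last-fifth one (NEFM, SYT1 and RBFOX3). Of 10 astrocyte markers 2 had a last-fifth peak (GJA1 and SLC1A3), of 10 markers of oligodendrocytes and their precursors 1 (CNP), of 10 microglial markers 1 (CX3CR1), and of 10 markers of endothelium and blood 0. An average of 1.2 ± 0.447 neuronal markers had a last-fifth peak in a sevoflurane animal and 1.17 ± 0.753 in a control, and 0.2 ± 0.447 and 0.167 ± 0.408 astrocyte markers did (SD, n = 5 and 6). In bulk tissue, fewer cells of a type and less RNA per cell cannot be told apart, and a marker without a peak may still have been expressed.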

How the data were processed

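m6A immunoprecipitation and sequencing of fragmented total RNA (SMARTer Stranded Total RNA-Seq kit, per the labels' protocols) gave 11 annotated peak lists, 1 per animal. The 11 input samples were not analysed here. The assembly was rheMac8, and the tools listed are HISAT2 2.1.0, StringTie, cutadapt and Trim Galore 0.5.0, per the submitters' processing notes. The peak caller and the library it took as background are not given. The p-value of each peak, its 2 log-scale significance scores and its fold enrichment, a ratio, are the authors' own, per the file headers. The deposited p-values were at most 0.001 and the fold enrichments at least 2.06. The lists hold 452 to 1673 peaks. No read counts are given, so the depth is unknown and precision rests on the number of animals.

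Position was computed from the annotated span in each row, and 854 peaks (8.48%) could not be placed, of which 520 had different caller and annotated genes, 187 were mitochondrial and 247 lay in spans under 400 bp, with overlaps between these classes. For 230 of 3413 genes the lists give more than 1 span. Of the 1491 genes with a last-fifth peak, 1463 had a symbol, 1373 of them from the supplied name table and the others from the lists. Printed starts count from 1.

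Groups followed the labels. Group comparisons were two-sided exact permutation tests over animals, of percentages for shares and of log2 values for numbers, distances and enrichments. Last-fifth and other peaks of the same animal were compared with a two-sided exact sign-flip permutation test over 11 animals. Intervals of 95% hold the shifts that the test did not reject at 0.05. Fisher's exact test compared presence where 2 to 9 animals had a peak, adjusted by Benjamini-Hochberg over every gene and 20% step. Python 3.11.15, numpy 2.4.6, pandas 2.3.3 and scipy 1.17.1 were used, and the tests were tried on simulated data. Nothing in the labels says that the animals were unrelated, and each is taken as 1 replicate.

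The position rule, the gene lists and the tests were chosen with earlier results of these data known. Named are the 12 genes with a last-fifth peak in most animals (ties by the peak's percentile in its list), up to 8 genes per direction with the lowest Fisher's p, up to 4 genes of each list, and the 3 genes with most regions, and others are named as chosen later or for completeness of a count. Some genes that the rule names are not reported here. Alternatives covered a stricter p of 1e-05, autosomes, other boundaries, equal list lengths, strand, sex, naming style, each animal left out, and, chosen after seeing the data, C1 and C3 left out together and 1 span per gene.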

Additional observations from a re-analysis of the deposited data

How the results depend on the processing

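Of the alternatives run, the within-animal results kept their direction and stayed under 0.05 in each: the log2 difference in enrichment between last-fifth and other peaks ran from 0.15 to 0.40 over 23 settings (highest exact p = 0.0391) and the single-block difference from 12.7 to 28.3 percentage points over 22 settings (highest exact p = 0.0195). The share of peaks in the last 20% of the span differed by -1.02 to 0.92 percentage points and changed sign in 5 of 23 settings, always with an exact p of at least 0.492. The log2 difference in the number of last-fifth peaks ran from 0.85 to 1.16 with each animal left out (exact p from 0.00794 to 0.0333). It was 0.013 with lists of equal length, by construction, since equal lists leave only the share to vary. With the replicate block, in which numbered animals S1 to S3 and C1 to C3 were paired by number, it was 0.85 (exact p = 0.25, the smallest this design allows). Same-numbered animals differed in sex in 1 of the 3 pairs. Their deviations from the group means, over 934 entries of a gene and a 20% step, correlated at 0.09, -0.01 and 0.05. Pairs of different numbers correlated between -0.13 and 0.09. With 3 pairs, these values cannot show whether the numbers mark a shared block.

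The log2 difference in median enrichment between the groups was -0.16 and lay between -0.22 and -0.12 with each animal left out. It passed 0.05 without C3 (-0.22, exact p = 0.0476), without C1 and C3 together (-0.27, exact p = 0.0238) and with labels permuted within naming style (-0.16, exact p = 0.045), and it was 0.10 with lists of equal length. The cause was not tested. The 10 genes of 483 tested that were more often marked in sevoflurane animals (15 of 1320 over all 20% steps) became 2 of 306 with peaks of p at most 1e-05 (8 of 840), 1 of 215 with equal lengths (4 of 597), 24 of 415 without C1 and C3 (55 of 1139), and 11 to 26 with each animal left out (16 to 63), where the group sizes change which counts can reach p under 0.05. None of the 10 kept a p under 0.05 at the stricter peak threshold. In any setting run, 0 genes had a last-fifth peak called more often in controls. Over all 20% steps, the entries called more often in controls were 3 of 1139 without C1 and C3. They were 1 without C, C1, C2 or C3 in turn, and 0 in the other settings. Depth is unknown, so a missing peak can be a shallow library.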

Other observations

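The share of peaks in the last 20% of the span was set out by strand after the values were seen, and is given as a description with no test. On the plus strand 42.5% ± 2.48 of an animal's placed peaks did so, against 34.7% ± 2.99 on the minus strand (SD, n = 11). The difference was 7.75 ± 2.57 percentage points, ran from 3.67 to 12.9 and was positive in 11 of 11 animals. The genes with a last-fifth peak numbered 794 on the plus strand and 697 on the minus strand, of 1698 and 1715 genes with any placed peak. The annotation class in the lists also runs against transcription on the minus strand, and whether both have the same source was not tested. The enrichment of last-fifth peaks was higher than that of other peaks on each strand, by 0.19 on the log2 scale on the plus strand (exact sign-flip permutation p = 0.0225) and by 0.30 on the minus strand (exact sign-flip permutation p = 0.00195).

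CHD3, a chromatin remodeller with a last-fifth peak in 10 animals, also had peaks elsewhere in the gene in all 11. CACNA1A, a calcium channel subunit, had them elsewhere in 7 animals and the remodeller CHD5 in 6. CIRBP, SYP, CRACD and NISCH had a last-fifth peak in every animal and none elsewhere in any.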
